A study of Homo sapiens with 4 samples.

Results

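The regions described here were promoter peaks of RNA polymerase II (Pol II) that were listed in RRN3-silenced cells and had no overlapping peak in control cells. They were chosen by position and by absence from the control list: a peak of the shRRN3 library on chromosomes 1 to 22 or X was taken when its midpoint lay within 1 kb of the start site of a protein-coding gene and no base of it was shared with a peak of the shLacZ library. There were 3299 such peaks among 4372 shRRN3 promoter peaks, 14321 shRRN3 peaks on these chromosomes and 18377 peaks in both lists together. The remaining 1073 shRRN3 promoter peaks were overlapped by a shLacZ peak and are called peaks in both lists. The names "shRRN3-only" and "in both lists" refer to these peak calls, and a region outside the shLacZ list may still have carried Pol II below the caller's threshold.

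The cells were SK-OV-3, an established human ovarian cancer line, made to express stably a hairpin RNA that targets RRN3 (shRRN3) or, as the control, bacterial LacZ (shLacZ). The study used Pol II chromatin immunoprecipitation followed by sequencing (ChIP-seq) to ask how RRN3 affects transcription by Pol II. The labels give 4 samples, with 1 library from the Pol II antibody and 1 from input chromatin per hairpin, and no input data were used here. The study describes several RRN3 hairpins and the labels do not say which was used for ChIP-seq, so the shRRN3 list stands for 1 culture with an unnamed hairpin. With 1 library per hairpin, an effect of the knockdown and a difference between 2 libraries in depth or enrichment cannot be told apart. In bulk chromatin, more cells with Pol II at a site and more Pol II per cell cannot be told apart either.

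Pol II transcribes the protein-coding genes of the nucleus. At most mammalian genes the enzyme assembles at the start site and pauses shortly downstream before it is released into the gene body, so that ChIP-seq peaks gather at start sites. Many of these start sites lie in CpG islands, stretches rich in G, C and the dinucleotide CG. Such promoters often serve genes used in nearly every cell and typically lack a TATA box, whereas TATA boxes mark some strongly regulated genes and replication-dependent histone genes. RRN3, also called TIF-IA, is known as the factor that brings RNA polymerase I to the ribosomal RNA genes.

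The start sites below carried shRRN3-only peaks that covered the start, and they are shown because they belong to high-scoring regions (C5orf34, RPL39, RPS24, HNRNPA0) or to autophagy and its mTORC1 control (ATG12, BECN1, ATG5, MTOR). Each run holds 100 bases before the start and the first 30 bases of the gene, read 5′ to 3′ on the strand of the gene from GRCh38. Capitals mark words that match a motif of the 15 searched. Only starts with a match were eligible, so the presence of a match here follows from the choice.
C5orf34 (minus strand, chr5:43515119-43515248): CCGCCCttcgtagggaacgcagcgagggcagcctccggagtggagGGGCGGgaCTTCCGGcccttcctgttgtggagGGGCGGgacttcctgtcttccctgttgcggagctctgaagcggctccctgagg
RPL39 (minus strand, chrX:119791601-119791730): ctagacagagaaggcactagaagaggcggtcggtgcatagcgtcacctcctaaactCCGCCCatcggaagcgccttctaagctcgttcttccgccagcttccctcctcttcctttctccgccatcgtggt
RPS24 (plus strand, chr10:78033660-78033789): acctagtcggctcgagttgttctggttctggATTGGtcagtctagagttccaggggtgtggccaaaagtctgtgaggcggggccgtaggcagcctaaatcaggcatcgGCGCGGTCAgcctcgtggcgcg
HNRNPA0 (minus strand, chr5:137754334-137754463): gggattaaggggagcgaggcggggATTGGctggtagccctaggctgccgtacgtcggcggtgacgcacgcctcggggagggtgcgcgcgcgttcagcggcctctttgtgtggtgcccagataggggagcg
ATG12 (minus strand, chr5:115841808-115841937): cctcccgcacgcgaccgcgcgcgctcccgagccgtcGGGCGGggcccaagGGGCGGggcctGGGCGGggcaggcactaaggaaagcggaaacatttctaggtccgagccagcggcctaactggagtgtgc
BECN1 (minus strand, chr17:42833321-42833450): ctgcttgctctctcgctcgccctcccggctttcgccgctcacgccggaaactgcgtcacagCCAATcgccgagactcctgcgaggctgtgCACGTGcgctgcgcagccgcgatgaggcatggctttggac
ATG5 (minus strand, chr6:106325762-106325891): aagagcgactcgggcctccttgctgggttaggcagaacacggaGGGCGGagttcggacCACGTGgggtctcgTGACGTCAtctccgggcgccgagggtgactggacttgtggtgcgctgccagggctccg
MTOR (minus strand, chr1:11262527-11262656): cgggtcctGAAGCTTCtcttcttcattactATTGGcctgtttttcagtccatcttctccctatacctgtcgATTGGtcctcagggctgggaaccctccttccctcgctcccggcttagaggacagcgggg
The GC box, GGGCGG or its complement, stood 3 times before the starts of C5orf34 and ATG12 and once before those of RPL39 and ATG5. The CCAAT box (CCAAT, reading ATTGG on the other strand) stood before RPS24, HNRNPA0, BECN1 and, in 2 copies, MTOR. BECN1 and ATG5 carried the E-box CACGTG at bases −10 to −5 and −42 to −37, and ATG5 also carried the cyclic AMP response element TGACGTCA at −28 to −21. The start of C5orf34 further held an ETS word, RPS24 a match to the antioxidant response element after its start, and MTOR a match to the heat shock element. A match describes these letters and does not show that a factor was bound.

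The values that chose the regions are given first, as a description. The MACS score, taken as 10 times the negative log10 of the peak's p-value, had a median of 77.6 over the shRRN3-only peaks, with quartiles of 60.8 and 108 and a range of 50.02 to 471. Promoter peaks in both lists had a median of 132 and reached 1580. The shRRN3-only peaks were a median of 578 bp wide (143 to 3749 bp), compared with 736 bp for peaks in both lists. Of the shRRN3 promoter peaks, 75.5% were shRRN3-only (95% exact interval 74.2% to 76.7%), compared with 86.4% without a shLacZ overlap among the 9949 shRRN3 peaks away from promoters. The shRRN3-only share declined from 90.9% in the lowest score quintile (scores to 60.2) to 45.1% in the highest (scores of 143 and above). In this highest quintile, 393 promoter peaks lacked a shLacZ overlap.

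**Figure D1:**
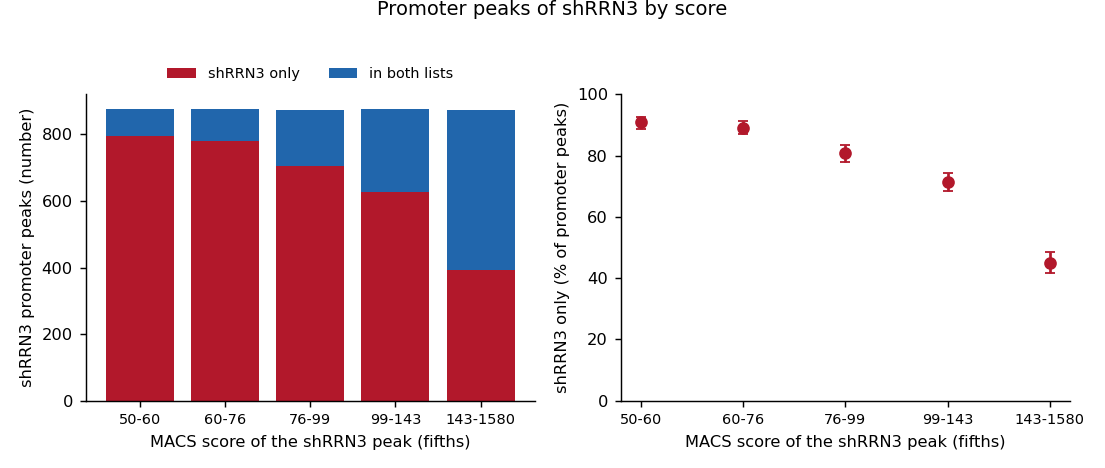
The left panel gives the number of shRRN3 promoter peaks in each score quintile, split into shRRN3-only peaks (red) and peaks in both lists (blue), and the right panel gives the shRRN3-only percentage with its exact 95% interval. The percentage runs from 90.9% in the lowest quintile to 45.1% in the highest, so peaks without a shLacZ overlap occur in every quintile. Their scores end at 471, while peaks in both lists reach 1580.

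The highest-scoring region lay at C12orf57 (chr12:6943359-6944462, score 471). Its midpoint was 933 bp downstream of the start of the gene span but 77 bp from an annotated coding transcript start. The region contained the whole of RNU7-1, the gene of the U7 small nuclear RNA that processes histone mRNA ends. The nearest shLacZ peak was 75693 bp away. The next was at TNFRSF10D, a decoy receptor for the death ligand TRAIL (chr8:23163830-23164187, score 409), where the midpoint lay 18 bp after the start. The peak at ENO1, encoding the glycolytic enzyme enolase 1, had a score of 361 (chr1:8877774-8879239), with its midpoint 683 bp from the start of the gene span but 139 bp from an annotated coding transcript start. RPL39 and RPS24, encoding ribosomal proteins, had peaks of scores 338 and 314 whose midpoints lay 51 and 194 bp after the starts. HNRNPA0, encoding an RNA-binding protein, had a score of 312, the deubiquitinase gene USP40 a score of 328, the zinc finger gene ZNF821 a score of 310 and C5orf34 a score of 347. For these 8 genes from TNFRSF10D to C5orf34, the nearest shLacZ peak was between 48677 bp (ZNF821) and 682401 bp (RPS24) away.

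The peak at the histone gene H4C16 differed from these in its surroundings. It had a score of 361 (chr12:14769585-14770760), and a shLacZ peak of score 121 began 175 bp from its edge. Its midpoint was 958 bp after the start of the gene span but 3 bp from an annotated coding transcript start. The widest regions were at S100A5 (3749 bp, score 225), RUSC2 (3332 bp, score 249) and GNG3 (2770 bp, score 59.3), so a wide peak was not always a high-scoring one. The 5 lowest-scoring regions had scores of 50.02 to 50.07.

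Most regions stood far from any control peak. The gap to the nearest shLacZ peak had a median of 151959 bp, with quartiles of 42590 and 468112 bp and a maximum of 12808220 bp. A smaller class lay beside one: 197 regions (5.97%, interval 5.19% to 6.84%) had a shLacZ peak within 1 kb. Of those 197, 118 had a nearest start site that also carried a promoter peak in both lists. Midpoints of the 197 regions lay over 500 bp from the start in 58.4% (51.2% to 65.3%), compared with 16.5% (15.2% to 17.9%) of the 3102 other regions. The 197 covered the start in 31.0%, compared with 74.2% of the others. Both contrasts follow in part from the rule and are a description. A region could share no base with the shLacZ peak beside it, so it could not cover a start under that peak. For 87 of the 197 (44.2%, 37.1% to 51.4%), the nearest start carried a peak in both lists and the midpoint lay over 500 bp from it. These 87 lay at the flanks of promoters that had a peak in both lists. At the limits of the rule, the EGLN1 region abutted a shLacZ peak with a gap of 0 bp, those at SPESP1 and TRPM7 were 2 and 4 bp from one, and the overlapped peaks that shared least had 12 bp (LAP3), 32 bp (HYCC2) and 46 bp (ZSCAN9) in common with shLacZ. By distance to the start, HDDC2 (1000 bp), MCL1 (999 bp) and GNB4 (998 bp) were just inside, and TAF11 (1001 bp), TLR6 and ATP5PF (both at −1003 bp, upstream) just outside.

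The side of the start on which a region lay was not used by the rule. Midpoints were downstream of the start in 55.1% of shRRN3-only peaks (1819 of 3299) and in 55.7% of peaks in both lists, a difference of −0.594 percentage points (Newcombe 95% interval −3.996 to 2.84). No difference in side was detectable at these numbers. The shRRN3-only midpoints were more spread: 65.5% lay within 250 bp of the start compared with 72.0% (difference −6.41 points, −9.49 to −3.22), and 71.6% of the peaks covered the start compared with 85.5% (−13.8 points, −16.4 to −11.1). The peaks in both lists were wider, which bears on how often a peak covers a start, and the part of width in this was not tested. Both contrasts also follow in part from the rule, since a region beside a shLacZ peak without overlap could only be shRRN3-only. Among the 3102 shRRN3-only regions with no shLacZ peak within 1 kb, 16.5% of midpoints lay over 500 bp from the start. For peaks in both lists this share was 12.3%. Of these 3102 regions, 74.2% covered the start, compared with 85.5% of peaks in both lists. Of the 627 shRRN3-only midpoints over 500 bp away, 72.9% were downstream, compared with 78.8% of the 132 such midpoints of peaks in both lists. When every annotated start of a coding transcript was used, the median distance was 78 bp for either group, compared with 141 and 136 bp for gene starts. Midpoints fell upstream of the gene in 45.0%, in an exon in 38.0% and in an intron in 17.0% of shRRN3-only peaks.

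**Figure D2:**
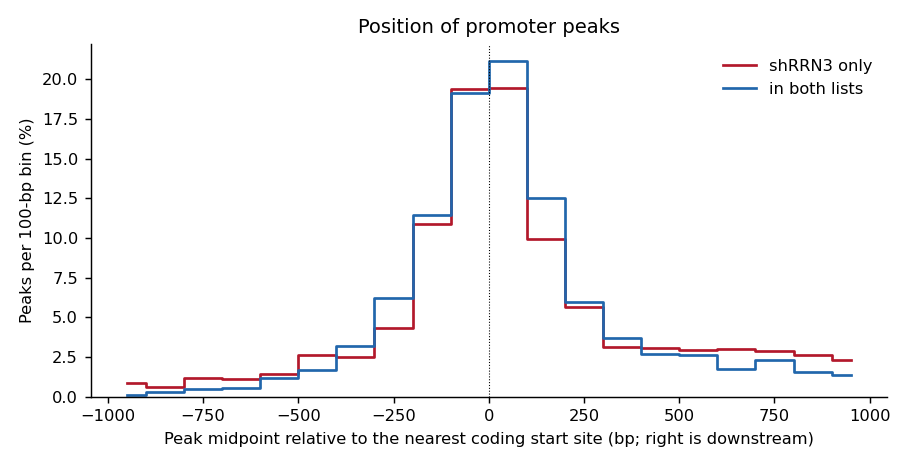
Percentage of shRRN3-only promoter peaks (red, 3299) and of promoter peaks in both lists (blue, 1073) whose midpoint falls in each 100-bp bin around the nearest protein-coding start site. Both groups are highest in the 100 bp on either side of the start (19.4% and 19.5% of shRRN3-only peaks). Beyond 500 bp, upstream as well as downstream, the shRRN3-only line stays above the other. Part of this follows from the rule, since a region beside a shLacZ peak without overlap can only be shRRN3-only.

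Other annotated starts were also examined. Coding starts on both strands lay within 1 kb of 16.3% of shRRN3-only peaks and 15.8% of peaks in both lists (difference 0.464 points, −2.15 to 2.90). The start of a long noncoding RNA gene lay inside 14.9% compared with 21.99% (−7.11 points, −9.94 to −4.42). A whole small RNA gene lay inside 18 shRRN3-only peaks (0.546%) and 23 peaks in both lists (2.14%), and the part of peak width in either count was not tested.

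Base composition was read from the genome around the starts and around the peak midpoints. A start site was called CpG-rich when the 1000 bp around it had at least 55% GC and an observed-to-expected CG ratio of at least 0.6. By this measure 75.1% of the 2954 start sites with only shRRN3-only peaks were CpG-rich (2218, interval 73.5% to 76.6%), compared with 77.0% of the 1049 start sites of peaks in both lists (difference −1.94 points, −4.86 to 1.11). Among the 14986 genes with no promoter peak in either list it was 44.8%, so the shRRN3-only start sites were higher by 30.3 points (28.5 to 32.0). Read the other way, 26.1% of CpG-rich genes and 9.74% of other genes had a shRRN3-only promoter peak.

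Around the midpoints themselves, the mean GC share of 200 bp was 63.1% ± 10.1 (SD over 3299 peaks) in shRRN3-only peaks and 63.4% ± 9.25 (SD over 1073) in peaks in both lists, a difference of −0.318 points (−0.969 to 0.334). This difference depended on score and on the group in which the flanking class was counted. By score quintile it was −2.39 points (−4.57 to −0.209) in the lowest, −1.99 (−3.93 to −0.0568) in the second, −2.49 (−3.95 to −1.02) in the third, −1.07 (−2.38 to 0.247) in the fourth and 1.39 (0.197 to 2.58) in the highest. Scores were not matched within a quintile, and in the highest the shRRN3-only peaks ended at 471 and the others at 1580. When regions with a shLacZ peak within 1 kb were moved to the peaks in both lists, the difference over all scores became 1.54 points (0.881 to 2.21). That setting changed both groups, and the part of either was not tested. No single direction of GC difference therefore held for these peaks. For CpG-rich start sites, the difference was below 0 in each quintile, from −6.27 points (−11.8 to −0.118) in the fourth to −1.22 points (−7.18 to 4.66) in the highest, and only the interval of the fourth excluded 0.

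Motifs were sought from 250 bases before to 50 after each start, on both strands, and a share is always of start sites with at least 1 match. Over all 19970 start sites, the GC box was in 52.4%, CCAAT in 35.9%, the cyclic AMP response element in 2.29% and its TGACGT core in 8.89%. The words of NRF1, YY1, ZNF143, ZBTB33, AP-1 and TEAD were in 3.75%, 3.05%, 3.12%, 1.45%, 3.99% and 12.9% of them, the heat shock element in 5.96% and the antioxidant response element in 13.7%. Since base composition bears on how often a word occurs, each comparison with genes lacking a promoter peak was repeated within CpG-rich starts. The ETS word CCGGAAG, bound by ETS factors such as GABPA, was in 23.1% of shRRN3-only starts, 8.19% of starts without a promoter peak and 11.9% of all starts. The difference from starts without a peak was 14.9 points (13.4 to 16.5) over all starts and 10.7 points (8.76 to 12.7) within CpG-rich ones. The NRF1 word GCATGCGC was in 6.80% and 2.58% (4.22 points, 3.33 to 5.22, and 3.67 points within CpG-rich starts), and the YY1 word AAGATGGC in 5.75% and 2.24% (3.52 points, 2.70 to 4.45, and 2.64 points within CpG-rich starts). NRF1 and YY1 are known regulators of housekeeping promoters. The TGACGT core was in 14.0% and 7.05% (6.93 points, 5.65 to 8.285, and 4.90 points within CpG-rich starts). Differences were also above 0 for CCAAT (2.74 points, 0.846 to 4.66, and 3.23 within CpG-rich starts) and the ZBTB33 word (2.08 points, 1.51 to 2.75, and 1.83 within CpG-rich starts). TGACGTCA stood at 1.58 points (0.938 to 2.32) and 0.42 within CpG-rich starts, where the interval included 0. The TATA box differed by −2.36 points (−2.80 to −1.83).

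The GC box changed sign between these comparisons. It was in 66.7% of shRRN3-only starts and 48.0% of those without a promoter peak (18.7 points, 16.8 to 20.5), and within CpG-rich starts in 76.2% and 80.0% (−3.77 points, −5.82 to −1.79). The E-box, known to be bound by MYC, USF and the lysosomal regulator TFEB, was in 8.87% and 8.12% (0.748 points, −0.322 to 1.91), and 8.35% of all starts held it. The heat shock element GAANNTTC, the AP-1 word TGAGTCA and the TEAD word GGAATG were less frequent at shRRN3-only starts than at starts without a promoter peak by 1.18 to 1.65 points, and within CpG-rich starts each of the 3 intervals included 0. For the antioxidant response element TGACNNNGC the difference was 1.97 points (0.610 to 3.41), and for ACTACAA, a word bound by ZNF143, 0.876 points (0.182 to 1.67). Within CpG-rich starts these became 2.05 points (0.341 to 3.85) and 0.105 points (−0.708 to 1.03), so that the second was no longer beyond counting error.

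Against peaks in both lists, most of the 15 motifs did not differ beyond counting error, including ETS (0.528 points, −2.49 to 3.41), NRF1 (0.0360 points, −1.85 to 1.71) and the GC box (1.26 points, −2.04 to 4.64). The exceptions were these 5. The TATA box, TATAAA at 40 to 20 bases before the start on the sense strand, was in 33 shRRN3-only starts (1.12%) and 4.29% of starts in both lists (−3.17 points, −4.61 to −2.01), and within CpG-rich starts in 0.676% and 3.96%. All starts held it in 3.03%. Of the 69 clustered histone genes, 32 had a promoter peak in both lists, and their part in the TATA difference was not tested. The CCAAT box was in 37.7% and 42.5% (−4.77 points, −8.25 to −1.33), the core TGACGT of the cyclic AMP response element, which every TGACGTCA also contains, in 14.0% and 17.2% (−3.27 points, −5.96 to −0.749), and TCTCGCGA, bound by ZBTB33, in 2.84% and 5.24% (−2.40 points, −4.01 to −1.03). The ZNF143 word was the one motif above the other group, with 3.83% and 2.38% (1.44 points, 0.163 to 2.52). Within CpG-rich starts, the intervals for TATA, CCAAT and ZBTB33 words still excluded 0 and those for the TGACGT core and ZNF143 did not. These are 15 comparisons and the intervals were not widened for their number.

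**Figure D3:**
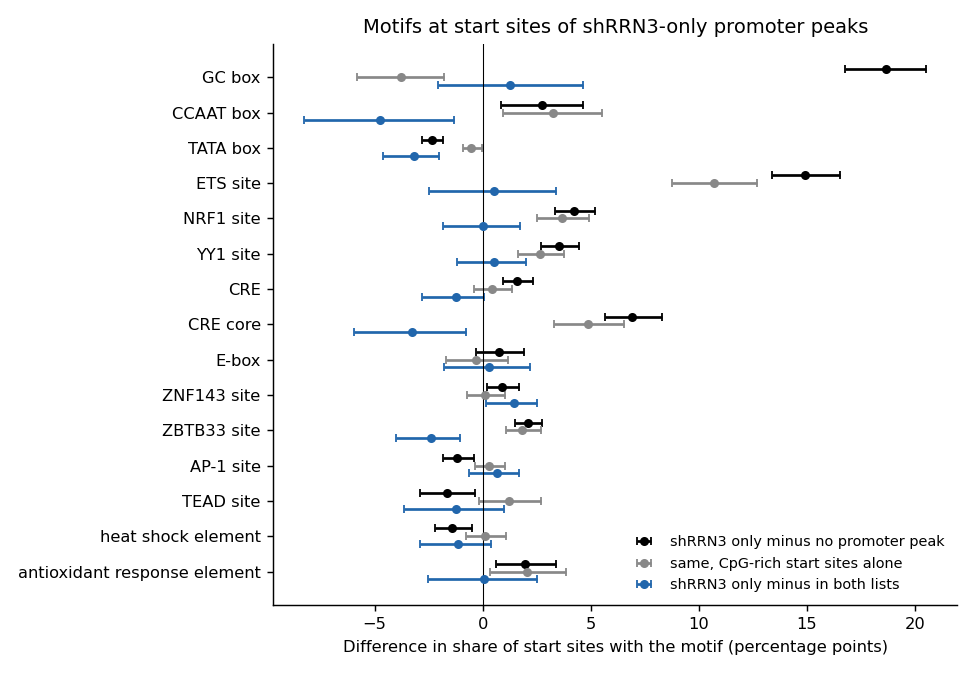
Difference in the percentage of start sites with each motif, in percentage points with 95% Newcombe intervals: shRRN3-only minus starts without a promoter peak (black), the same within CpG-rich starts (grey) and shRRN3-only minus starts of peaks in both lists (blue). The ETS word stands at 14.9 and 10.7 points in the first 2 comparisons and at 0.528 in the third, while the TATA box lies below 0 in all 3.

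The genes reached by the regions numbered 3655 of 19970 protein-coding genes (18.3%), and for 3458 of them no other promoter peak was listed in either library. As background, 6.3% of genes had a promoter peak in both lists. The counts below were read against 18.3% and, since most of these genes have CpG-rich promoters, against the 26.1% of CpG-rich genes. Exact intervals over the genes of a list were used, and neighbouring genes can share 1 peak. For 632 of the 3655 genes (17.3%), the highest-scoring shRRN3-only peak lay nearer to the start of another coding gene, and for 72.4% it covered the start of the gene named. Of 21 gene lists, 13 had an interval wholly above 18.3%, 6 included it and 2 were below it. For 6 lists the interval was also above 26.1%: aminoacyl-tRNA synthetases, the mitochondrial ribosome, oxidative phosphorylation, RNA splicing, clustered histones and the zinc finger genes of chromosome 19. Of the clustered histones, however, 23.2% were CpG-rich and 20.3% had a shRRN3-only peak with no other promoter peak, compared with 17.3% of all genes.

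Autophagy is the pathway that encloses cell contents in a double membrane and delivers them to the lysosome. Of 46 core autophagy genes, 17 (37.0%, 23.2% to 52.5%) had a shRRN3-only promoter peak, 3 had a peak in both lists and 26 had neither. The interval lay above 18.3% and included 26.1%. For initiation, ULK1 and ATG13, parts of the kinase complex that starts the process, had peaks of low score (53.4 and 60.2). For the lipid kinase complex that marks the forming membrane, PIK3R4 (138), BECN1 (84.6), PIK3C3 (75.3) and the BECN1 partner AMBRA1 (68.1) had one. For the conjugation machinery that attaches LC3 to the membrane, ATG12 (173), ATG16L2 (98.0), ATG4C (97.2), ATG5 (89.5), ATG7 (88.9) and ATG3 (58.3) had one, while ATG16L1 had no promoter peak in either list. The cargo receptors TAX1BP1 (107) and OPTN (62.3), the lipid scramblases VMP1 (205) and TMEM41B (61.7), and STX17 (72.8), which fuses autophagosomes with lysosomes, completed the 17. The peaks at OPTN and TAX1BP1 had midpoints 635 and 644 bp after the starts and did not cover them, and 13 of the 17 peaks covered the start. Those at VMP1, ATG12 and OPTN lay nearer to the start of another coding gene, at 77, 105 and 432 bp, so the gene they belong to cannot be told from position. The VMP1 peak was at chr17:59707064-59708033 and that of ATG12 at chr5:115841348-115842045. The 17 scores had a median of 84.6, close to the 77.6 of all shRRN3-only peaks.

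The protein kinase complex mTORC1, which restrains autophagy when nutrients are plentiful, gave a like count. Among 39 of its components and regulators, 13 (33.3%, 19.1% to 50.2%) had a shRRN3-only promoter peak. Among them were MTOR, its catalytic subunit (123), RPTOR, the subunit that recruits substrates (69.8), and AKT1S1, an inhibitory subunit (183). The GATOR1 subunits DEPDC5 (136) and NPRL2 (70.5), the KICSTOR subunits ITFG2 (108) and KICS2 (82.9), and SESN1 (93.9) act in amino acid sensing. RRAGA (116) and LAMTOR5 (80.1) belong to the lysosomal platform, TBC1D7 (112) to the inhibitory TSC complex, and FNIP1 (61.4) to the folliculin complex. The AKT1S1 peak did not cover that gene's start, 756 bp from its midpoint, and lay 37 bp from the start of another coding gene. Of the 13 peaks, 5 were nearer to another gene's start, also those at RRAGA, SESN1 and NPRL2. For 44 lysosome genes the count was 12 (27.3%, 14.96% to 42.8%), an interval that included 18.3%. The highest of these were ATP6V0B (96.7), ATP6V0A1 (93.0) and ATP6V1G1 (89.4), which encode subunits of the proton pump.

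For translation, 22 of 40 aminoacyl-tRNA synthetase genes and cofactors (55%, 38.5% to 70.7%) had a shRRN3-only promoter peak, the highest share among the 21 lists. These enzymes charge tRNAs with amino acids. High scores were found at RARS2 (160) and NARS2 (137), which act in mitochondria, and 7 of the 40 had a peak in both lists. RARS2 shared its peak with the neighbouring replication gene ORC3, and HARS1 and HARS2, transcribed from a common region, also shared 1 peak (111). For the mitochondrial ribosome the count was 33 of 78 (42.3%, 31.2% to 54.0%), led by MRPL30 (190), MRPL3 (186) and MRPL1 (172).

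The cytosolic ribosome differed in that most of its promoters were already in both lists. Of 85 genes, 50 (58.8%) had a promoter peak in both lists and 27 (31.8%, 22.1% to 42.8%) had a shRRN3-only one, led by RPL39, RPS24 and RPL5 (289). For 9 of these 27 the shRRN3-only peak stood beside a peak in both lists, among them RPLP1, RPS2, RPS10, RPL26, RPL31, RPS27 and RPL13. The scores at these 7 genes ran from 50.03 to 81.6 and the midpoints lay 526 to 897 bp from the start, within 395 bp of a shLacZ peak. That left 18 genes (21.2%) whose promoter was listed for shRRN3 alone. The clustered histone genes, whose mRNAs end without a poly(A) tail, gave a similar picture, with 27 of 69 (39.1%) having a shRRN3-only peak, 11 of them beside a peak in both lists, 2 with a shLacZ promoter peak but none in both lists, and 14 (20.3%) with no other promoter peak. H2AC20 and H2BC21 shared a peak (267) 592 bp from a shLacZ peak. Reads of near-identical histone copies may have been shared between genes, and their treatment is not given in the sources used here.

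For energy metabolism, 32 of 76 oxidative phosphorylation genes (42.1%, 30.9% to 54.0%) had a shRRN3-only promoter peak, led by the ATP synthase gene ATP5F1B (208), UQCRQ of complex III (166) and NDUFA2 of complex I (163). Glycolysis had 3 of 18 (16.7%), which were ENO1, PGAM1 (52.8) and GAPDH. The GAPDH peak (67.2) lay 971 bp after the start, 558 bp from a shLacZ peak, and the GAPDH promoter also had a peak in both lists. For the proteasome the count was 15 of 41 (36.6%), led by PSMD4 (193), PSMC6 (164.5) and PSMD7 (124).

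For the transcription machineries, 8 of 22 genes of RNA polymerase I and its factors (36.4%, 17.2% to 59.3%) had a shRRN3-only promoter peak, led by the largest subunit POLR1A (149), TAF1B (89.1) and POLR1B (87.8). RRN3 itself had no promoter peak in either list. The peak lists do not measure RRN3 mRNA or protein and gave no check of the knockdown. For Pol II and its factors the count was 20 of 61 (32.8%, 21.3% to 46.0%), led by the elongation factor SUPT5H (199), the helicase ERCC3 (147) and TAF10 (140.5). The SUPT5H peak covered its start but lay nearer to that of a neighbouring coding gene (82 bp compared with 125 bp upstream). The machinery of 3′ end processing and termination had 10 of 32 (31.2%, 16.1% to 50.01%), an interval that included 18.3%, led by CPSF7 (143), the termination exonuclease XRN2 (104) and NUDT21 (73.5). The NUDT21 peak lay 720 bp from that start and 42 bp from another coding start. Splicing had 23 of 56 (41.1%, 28.1% to 55.02%), led by CDC5L (220), DHX15 (177) and SNRPA1 (174). Ribosome biogenesis had 24 of 69 (34.8%, 23.7% to 47.2%), led by GNL2 (131), UTP20 (99.2) and BMS1 (98.9).

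DNA replication had 18 of 51 (35.3%, 22.4% to 49.9%), led by TOP2A (231), GMNN (189) and ORC3 (160), and DNA repair 16 of 64 (25%, 15.02% to 37.4%), led by XRCC4 (150), ERCC3 and DCLRE1C (133). Of 246 zinc finger genes of chromosome 19, many of which encode DNA-binding repressors, 82 (33.3%, 27.5% to 39.6%) had a shRRN3-only promoter peak. These were led by ZNF69 (193), ZNF528 (186.5) and ZNF320 (182), while 16 of the 246 (6.504%) had a peak in both lists. The HOX genes had 5 of 39 (12.8%), led by HOXB5 (138), HOXB9 (72.5) and HOXB4 (57.8). Families silent in most tissues were nearly or wholly without such peaks. None of 415 olfactory receptor genes had one, which allows a share of up to 0.723% at a limit of 3 counts and of 0.885% by the exact interval, and 3 of 168 keratin and cornified envelope genes did (KRT80, KRT8 and KRT18, the latter 2 through a shared peak of score 121).

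**Figure D4:**
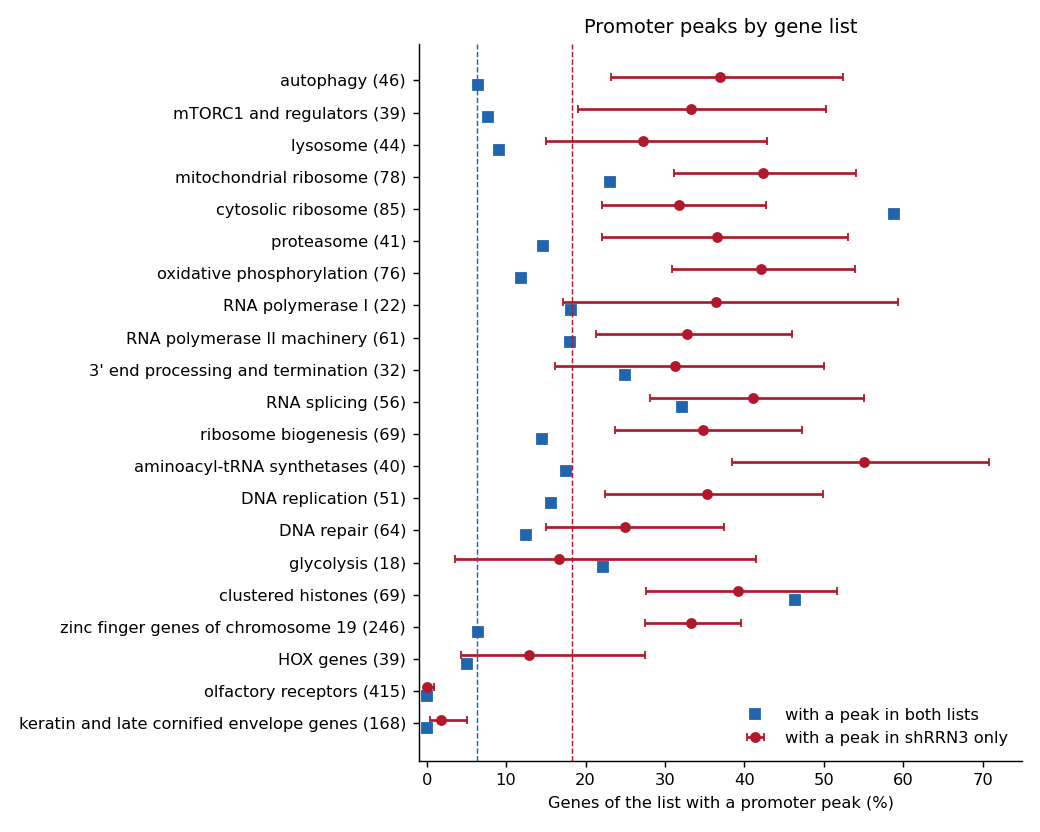
Percentage of genes in each of 21 lists (number of genes in brackets) with a shRRN3-only promoter peak (red circles, exact 95% intervals) and with a promoter peak in both lists (blue squares), with dashed lines at the values over all protein-coding genes, 18.3% and 6.3%. The cytosolic ribosome (58.8%) and clustered histones (46.4%) have more genes in both lists than in shRRN3 only, glycolysis does too on small numbers, and olfactory receptors have none of either.

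The genes that the study followed and the cell type markers were looked up by name. COMMD3 had a peak in both lists at its start, and BMI1 had a shLacZ promoter peak with no overlapping shRRN3 promoter peak, so neither had its promoter in the shRRN3 list alone. Among markers fixed for ovarian carcinoma epithelium, PAX8, a lineage factor of Müllerian epithelium, and VIM had peaks in both lists, KRT8 and KRT18 had a shRRN3-only one, and ERBB2, KRT7 and KRT19 had no promoter peak. Among 10 markers of blood, liver, neurons, muscle and pancreas, 9 had no promoter peak in either list, and the neuronal gene SYN1 had a shRRN3-only peak of score 69.1. Of all 19970 protein-coding genes, 14986 had no promoter peak in either list. Against that background, these few markers cannot tell cell types apart.

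Peaks of the control library inside genes were a readout that the rule did not use. A shLacZ peak in the gene body, over 1 kb from any coding start, was listed for 255 of the 3458 genes (7.37%, 6.53% to 8.30%) whose only promoter peaks were shRRN3-only. It was listed for 3.86% of the 14986 genes with no promoter peak, a difference of 3.52 points (2.63 to 4.48), and for 11.4% of the 1259 genes with a promoter peak in both lists. Gene length moved with this: the median length was 33702 bp in the first group and 25575 bp in the second. Within bands of length the difference was 2.15 points (1.09 to 3.81) up to 10 kb, 1.86 points (0.790 to 3.23) from 10 to 30 kb, 3.83 points (2.30 to 5.56) from 30 to 100 kb and 5.32 points (2.31 to 8.67) above 100 kb. Genes whose promoter was listed for shRRN3 alone thus held shLacZ peaks in their bodies more often than genes without a promoter peak at every length. When both lists were held to the median shLacZ score the difference was 1.07 points (0.476 to 1.78).

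**Figure D5:**
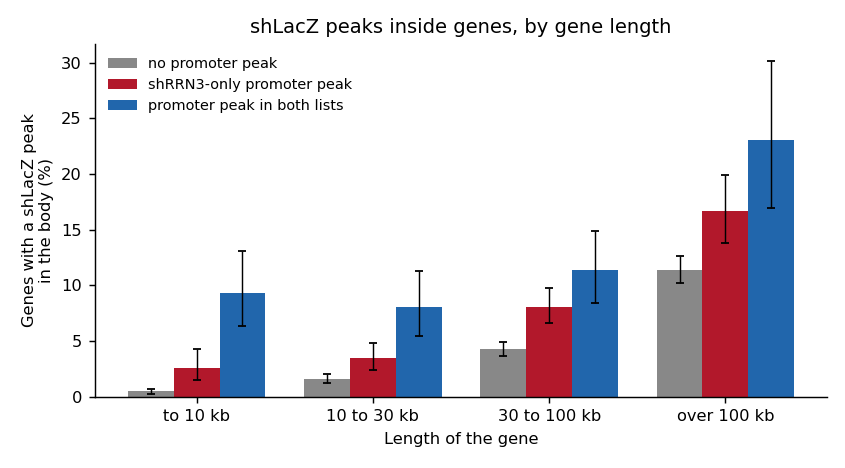
Percentage of genes with a shLacZ peak in the gene body, by gene length, for genes with no promoter peak (grey), with a shRRN3-only promoter peak (red) and with a promoter peak in both lists (blue), with exact 95% intervals. The red bars rise from 2.62% for the shortest genes to 16.7% for the longest and lie between the grey and blue bars in each band.

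The regions were found on every chromosome used. The share of genes with a shRRN3-only promoter peak was lowest on chromosome X (8.498%, 6.72% to 10.6%) and chromosome 7 (14.1%, 11.9% to 16.5%) and highest on chromosome 12 (23.1%, 20.6% to 25.8%). As a share of the shRRN3 promoter peaks of a chromosome, it ranged from 66.7% on chromosome 6, which carries the main histone clusters, to 88.0% on X. Copy number of SK-OV-3 was not measured here.

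The shRRN3 list was 3.66 times as long as the shLacZ list on these chromosomes. When only its top-scoring 3916 peaks were kept, the number in the shLacZ list, 925 shRRN3-only promoter peaks were left at 1130 genes (5.66%), and 4 of the 46 autophagy genes (8.70%) were among them. The counts above therefore hold for the lists as deposited, and most regions are peaks of moderate or low score in the longer list.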

How the data were processed

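Pol II ChIP-seq peak lists of SK-OV-3 cells were used, 1 library per hairpin. For either library the authors deposited a list of its own, with coordinates, peak names that contain MACS and a score for every peak. The score was taken as 10 times −log10 of the p-value, from its floor near 50 and its ceiling of 3100 in each list. The aligner, the MACS version, the threshold and the use of the inputs are not given in the sources used here. The build was hg38 per the submitters' processing notes. A peak list holds no reads, so depth is unknown.

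Start sites were the 5′ ends of the 19970 protein-coding gene spans of GENCODE release 44 on chromosomes 1 to 22 and X, and 42 shRRN3 and 98 shLacZ peaks on other sequences were left out. The window was 1 kb, 1 shared base counted as overlap, and overlaps were checked with bedtools 2.31.1 and tested on simulated data. Sequence was read from GRCh38 with pysam 0.24.0. Intervals are 95% intervals from scipy 1.17.1: exact Clopper-Pearson for shares, Newcombe for differences of shares and normal-theory for differences of means. They cover counting error only, treat peaks and genes as independent and compare these libraries, not the conditions, so no p-value was computed. Score quintiles were formed over all shRRN3 promoter peaks. A start with both kinds of peak was counted with those in both lists in the sequence comparisons.

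The regions, the 21 gene lists and the 15 motifs were chosen with earlier results of these data known. For the gene lists, 3 symbols were not found in the annotation. Named genes were those at the 10 highest-scoring and 3 widest regions, the 3 highest-scoring per list, the study's genes, markers and those at the limits of the rule. Other shRRN3-only genes of the autophagy and mTORC1 lists, ribosomal genes with a second peak, and HARS1 and HARS2 were named after their values were seen. Some genes that these choices select are not reported here. Of the 8 sequences shown, each start was covered by its peak and was chosen among named genes whose start carried a motif. Motifs were the GC box GGGCGG, the CCAAT box, the TATA box TATAAA, ETS CCGGAAG, NRF1 GCATGCGC, YY1 AAGATGGC, the cyclic AMP response element TGACGTCA and its core TGACGT, the E-box CACGTG, ZNF143 ACTACAA, ZBTB33 TCTCGCGA, AP-1 TGAGTCA, TEAD GGAATG, the heat shock element GAANNTTC and the antioxidant response element TGACNNNGC. Alternatives were 7 changes of window, overlap rule, score, list length and start sites.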

Additional observations from a re-analysis of the deposited data

How the results depend on the processing

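No paired analysis was possible because every hairpin had a single Pol II library. The number of shRRN3-only promoter peaks stayed within 1.5 times of 3299 under 6 of 7 alternatives, from 2499 with both lists at or above the median shLacZ score of 65.6 to 4631 with any coding transcript start, and was 925 when the shRRN3 list was cut to the length of the shLacZ list. Genes with such a peak ranged likewise from 2900 to 4565 and were 1130 in the cut list. Autophagy genes were not counted with 2 kb, with shLacZ covering 50% of a peak or at the median score. They numbered 15 with 0.5 kb, 17 when a shLacZ peak within 1 kb counted as overlap, 19 with any coding transcript start and 4 in the cut list. These changes follow from the construction, since the cut drops only lower-scoring shRRN3 peaks. The share of shRRN3 promoter peaks without a shLacZ peak, 75.5%, was 74.0% with a window of 0.5 kb and 76.9% with 2 kb. It was 71.0% when a shLacZ peak within 1 kb also counted as overlap, and 81.9% when shLacZ had to cover 50% of the peak. At the median score it was 79.7%, in the cut list 56.6% and with any transcript start 77.5%. The differences from peaks in both lists in CpG-rich share and in side of the start kept their sign and an interval including 0 under each of 4 alternatives. The GC difference around midpoints, −0.318 points, was 0.762 with 0.5 kb, 0.942 at the median score and 0.738 in the cut list. It was 1.54 when peaks with a shLacZ peak within 1 kb were counted with those in both lists. The cause was not tested. The difference in shLacZ body peaks, 3.52 points, kept its sign and an interval above 0 under all 4 alternatives and was 1.07 points at the median score, where fewer shLacZ peaks entered. Without replicates or reads, neither the spread between cultures nor the depth behind a missing shLacZ peak could be given.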
